A study of Mus musculus with 4 samples.

Results

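The 40 protein-coding genes described here are the aldehyde dehydrogenases and carboxylesterases of the mouse, chosen by symbol. All 21 genes whose symbol starts with Aldh and all 19 whose symbol is Ces followed by a digit were taken, out of 20665 protein-coding genes on chromosomes 1 to 19 of the mm10 build. Binding of MafG to chromatin was measured by ChIP-seq in whole livers of C57BL6/J mice, in 2 libraries from livers given Ad BLRP MAFG, which overexpress MafG fused to the BLRP peptide tag, and 2 from livers given Ad BLRP Control. The tag was precipitated with an Avi-tag antibody in both groups, and neither group carries tagged MafG at its native level. The labels give no age or sex, and signal from different liver cell types cannot be told apart. The deposited list holds 1 value per peak from 1 BLRP-MafG and 1 control tag collection, with no value per library, so the spread between livers is unknown and nothing was tested between groups.

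Each gene was given the listed peaks whose midpoint lay inside it or within 10 kb of either end. The height of a peak is its normalized tag count, the number of BLRP-MafG tags in its 200 bp scaled to 10000000 tags in all. The BLRP-MafG collection held 20406492 tags, and the scaling of the list gives 1.72e+07 for the control. Bounds in parentheses are exact 95% intervals and cover counting error only. The ratio to control is corrected for depth. Where the control held 0 tags it was set to 3 tags, the count that 0 allows, and the ratio is a lower bound; the exact lower limit given beside it also counts the error of the BLRP-MafG tags and lies below it.

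MafG is a small MAF protein that binds DNA as a dimer, often with NRF2 or BACH1, and lacks an activation domain of its own. Aldehyde dehydrogenases oxidise aldehydes to acids, among them retinal, acetaldehyde, the aldehydes of lipid peroxidation and intermediates of amino acid breakdown. Carboxylesterases hydrolyse esters and amides of drugs and lipids, and in rodents they form large families of neighbouring copies that are abundant in liver. Several enzymes of this kind are known targets of the NRF2 pathway.

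Most of the 40 genes had a MafG peak, as most genes of the genome did. A peak was listed for 34 members (85%), against a background of 76.5% of all protein-coding genes. Among the aldehyde dehydrogenases 19 of 21 (90.5%) had one, and among the carboxylesterases 15 of 19 (78.9%), which is near the background. Longer genes offer more room for a peak. Between the lower and the upper quartile of member length, 13190 and 34663 bp, 18 of 20 members had a peak, against 81.5% of all genes of such length. Peaks lay inside 26 members (65%), against 52.2% of all genes, and inside or within 1 kb of 28 (70%), against 58.6%. No member had more than 6 peaks, and 6 members (15%) had 5 or more, against 14.0% of all genes.

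In height the aldehyde dehydrogenases stood above the carboxylesterases, and neither family reached the tallest peaks of the list. The difference was not tested. Most carboxylesterases are neighbouring copies, whose reads can be split or misplaced by mapping, and this was not tested either. The median of the highest normalized tag count per gene, genes without a peak counted as 0, was 32.8 over the aldehyde dehydrogenases, 19.1 over the carboxylesterases and 14.7 over all genes. Median gene length was 27.8, 19.58 and 17.49 kb in that order, and heights were not corrected for it. When a peak counted only for the nearest gene, the highest count fell below its interval for 5 members, all aldehyde dehydrogenases. It fell to 80.9 at Aldh9a1, 34.8 at Aldh3b1 and 0 at Aldh3b3, Aldh6a1 and Aldh1b1. A peak of at least 20 was present at 14 of 21 aldehyde dehydrogenases (66.7%) and at 7 of 19 carboxylesterases (36.8%), against 41.0% of all genes. A peak of at least 50 was present at 7 of the 40 members (17.5%), against 17.9%, and one of at least 100 at 2 (5%), against 7.95%. The highest member peak, of 129.9, stood above 97.5% of peaks on chromosomes 1 to 19, whereas the tallest peak of the list reached 2109. In the order of the highest peak per gene, the intervals of all 33 neighbouring pairs overlapped, so the order of neighbours is not resolved by the counting.

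**Figure D1:**
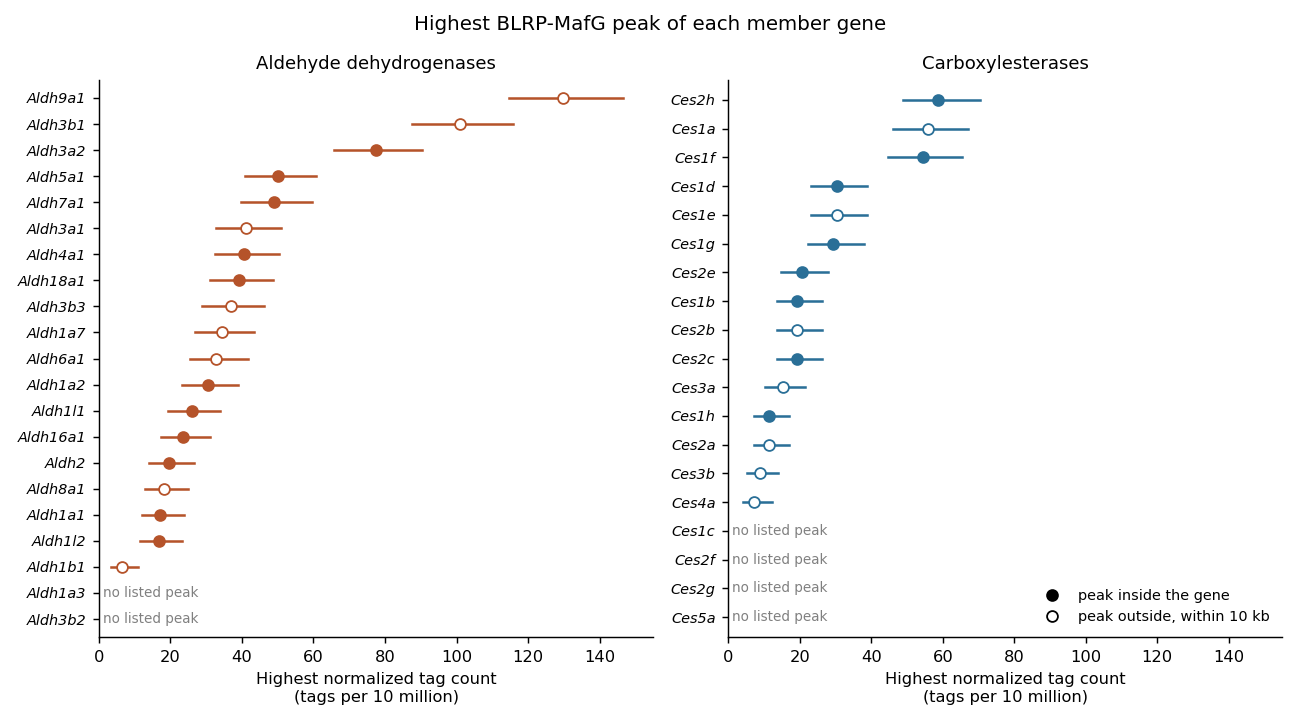
Highest normalized tag count (tags per 10000000) of each aldehyde dehydrogenase (left) and carboxylesterase gene (right). Points are single peaks of 1 tag collection, lines are exact 95% Poisson intervals, filled points lie inside the gene and open points outside within 10 kb; Aldh9a1, Aldh3b1 and Aldh3a2 lie highest, and 6 genes have no listed peak.

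The aldehyde dehydrogenases of amino acid and amine metabolism all had a peak, 6 of 6 genes, where 76.5% of all genes did. Their median highest count was 44.85, beside 14.7 over all genes. Aldh9a1, which encodes the enzyme that oxidises trimethylaminobutyraldehyde in carnitine synthesis, had 6 peaks, of 7.84, 80.9, 27, 36.8, 129.9 and 8.82 in order of position. The tallest, at chr1:167372831-167373031, lay 4401 bp outside the gene and inside its neighbour Mgst3, which encodes a microsomal glutathione S-transferase. It counted 129.9 (115 to 147) over 1 control tag, and its ratio was 224 (39.8 to 8862), or 74.5 against the floor of 3 tags. Counted for the nearest gene only, it belongs to Mgst3, and the highest peak of Aldh9a1 is then the one of 80.9 (69 to 94.2) at chr1:167349807-167350007. That peak lay at the start of Aldh9a1, its centre 84 bp upstream of the listed transcription start site. With 0 control tags there, that peak was 46.4-fold over the floor (exact lower limit 37.3).

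The promoter window of Aldh9a1 is shown because it holds, under this peak, the letters that MAF and NRF2 dimers are known to bind. The window runs from 250 bases before to 50 after the start, from RefSeq on GRCm38.p6, the assembly of mm10. It lies on the plus strand at chr1:167349741-167350040, and positions are counted from the start site as 0. Capitals mark a MAF core, TGCTGA, at positions -90 to -85, which runs into an antioxidant response element core, TGACNNNGC, at positions -87 to -79.
Aldh9a1: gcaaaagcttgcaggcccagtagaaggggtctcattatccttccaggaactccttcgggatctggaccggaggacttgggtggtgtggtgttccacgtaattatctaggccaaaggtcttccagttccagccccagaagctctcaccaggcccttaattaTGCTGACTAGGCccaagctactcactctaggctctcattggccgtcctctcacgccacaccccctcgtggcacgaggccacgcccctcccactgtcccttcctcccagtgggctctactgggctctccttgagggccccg
The joined stretch is TGCTGACTAGGC and lies inside the peak. This joined form was looked for in all windows after it had been seen here: 61 of 20085 promoter windows (0.304%) held one on either strand, and 17 of the 2359 windows that a peak overlaps (0.721%). Aldh9a1 was the only one of the 33 member windows with it.

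Aldh4a1 and Aldh18a1 work in proline breakdown and proline synthesis. Aldh4a1, the pyrroline carboxylate dehydrogenase, had 5 peaks, of 16.7, 40.7, 12.3, 37.7 and 6.37 in order of position. The highest, of 40.7 (32.4 to 50.4) at chr4:139624847-139625047, lay 2053 bp downstream of the listed start site. With 0 control tags it was 23.3-fold over the floor (exact lower limit 18.6). Aldh18a1, the pyrroline carboxylate synthase, had 6 peaks, of which 5 were between 5.88 and 17.2 and 1 reached 39.2 (31.1 to 48.8) at chr19:40570965-40571165. The control held 6 tags at that peak, the most at any member peak, and the ratio was 11.3 (4.95 to 31.6). Aldh6a1, the methylmalonate semialdehyde dehydrogenase of valine breakdown, had a single peak of 32.8 (25.4 to 41.7) at chr12:84451242-84451442. It lay 318 bp upstream of a listed Aldh6a1 start and 166 bp from Lin52, which is the nearer gene.

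Aldh5a1 and Aldh7a1 each had 1 peak of about the same height well inside the gene. Aldh5a1, the succinic semialdehyde dehydrogenase of GABA breakdown, held a peak of 50 (40.8 to 60.7) 7378 bp inside its far end at chr13:24914857-24915057, with a ratio of 28.7 (9.54 to 141). Its other peak, of 18.1, lay 7140 bp outside it in the neighbouring gene Gpld1. Aldh7a1, the enzyme of lysine breakdown that oxidises aminoadipic semialdehyde, held one of 49 (39.9 to 59.6) at chr18:56556429-56556629, with a ratio of 28.1 (9.35 to 139), and one of 10.8, 105 bp inside one end, where Phax overlaps it. The intervals of the 2 taller peaks overlapped.

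Family 3, whose members act on fatty and aromatic aldehydes, had a peak at 4 of 5 genes, near the 76.5% of all genes, and a median highest count of 41.2. Aldh3a2, the fatty aldehyde dehydrogenase, had 5 peaks of 77.4, 5.88, 16.7, 15.7 and 5.88 in order of position. The tallest, of 77.4 (65.8 to 90.5), lay inside the gene at chr11:61236479-61236679, 30607 bp downstream of the listed start site, with 4 control tags and a ratio of 33.3 (12.8 to 124). It was the only one of the 5 above 20. Aldh3a1, its neighbour and a major soluble enzyme of the cornea, had no peak inside it. The higher of its 2 peaks, of 41.2 (32.8 to 51), lay 4594 bp outside at chr11:61203816-61204016, and the other was 25. The higher had a single control tag, for a ratio of 70.9 (12.4 to 2832), or 23.6 against the floor of 3 tags.

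The peaks of the Aldh3b genes lay largely in other genes. Aldh3b1 had peaks of 100.9, 31.4, 34.8 and 7.84. The tallest, of 100.9 (87.6 to 116) at chr19:3903768-3903968 with a ratio of 34.75 (14.65 to 108), was 9623 bp away and inside Tcirg1, a proton pump subunit gene. Those of 31.4 and 7.84 lay in Ndufs8 and Unc93b1, which leaves 34.8 (27.2 to 43.9), inside Aldh3b1, as its own. The only peak of Aldh3b3, of 36.8 (28.9 to 46.1) at chr19:3950495-3950695 with a ratio of 63.3 (11 to 2532), lay 8137 bp from it and 1255 bp from Unc93b1. Aldh3b2 had none within 10 kb. By the nearest gene, then, Aldh3b1 was the only Aldh3b gene with a peak.

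The group taken as retinal dehydrogenases, an enzyme type that makes retinoic acid, also had a peak at 4 of 5 genes. Not every gene of the group need act on retinal. Its median highest count was 18.1, beside 14.7 over all genes. Aldh1a1, the main cytosolic enzyme of liver, spans 150881 bp and held 3 peaks of 6.37, 17.2 and 6.86. The highest, of 17.2 (11.95 to 23.85) at chr19:20601853-20602053, was centred 15 bp upstream of the second of 2 listed start sites. With 0 control tags it was 9.84-fold over the floor (exact lower limit 7.59). Aldh1a7, a copy next to Aldh1a1 in rodents, had peaks of 10.8 and 34.3. The higher, of 34.3 (26.7 to 43.3) at chr19:20727478-20727678, was centred 22 bp upstream of its start site, with 4 control tags and a ratio of 14.8 (5.52 to 55.7). The count was thus higher at the start of Aldh1a7 than at that of Aldh1a1, by intervals that do not overlap, while the control was also higher there. In ratio to control the order is not resolved. The Aldh1a1 ratio has a lower limit of 7.59 and no upper limit, and the interval of Aldh1a7, 5.52 to 55.7, overlaps that range.

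Both start windows are shown because they are copies of each other and carry the same MAF core at the same place under a peak. The Aldh1a1 window is on the plus strand at chr19:20601718-20602017 and the Aldh1a7 window on the minus strand at chr19:20727507-20727806. Capitals mark TGCTGA, at positions 4 to 9 after the start site in both.
Aldh1a1: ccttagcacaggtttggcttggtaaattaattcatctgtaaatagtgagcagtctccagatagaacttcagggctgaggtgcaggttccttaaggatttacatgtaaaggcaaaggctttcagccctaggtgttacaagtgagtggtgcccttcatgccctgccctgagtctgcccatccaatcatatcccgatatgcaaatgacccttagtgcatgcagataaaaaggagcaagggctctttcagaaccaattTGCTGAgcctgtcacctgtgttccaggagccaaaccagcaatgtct
Aldh1a7: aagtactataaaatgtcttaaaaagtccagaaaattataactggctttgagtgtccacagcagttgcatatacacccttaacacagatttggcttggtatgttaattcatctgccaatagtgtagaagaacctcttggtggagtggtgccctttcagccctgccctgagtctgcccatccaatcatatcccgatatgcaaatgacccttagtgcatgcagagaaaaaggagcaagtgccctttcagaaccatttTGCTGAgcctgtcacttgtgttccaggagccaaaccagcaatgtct
Aligned end to end, the windows were 70.4% identical, and their longest shared run was 65 bases. No antioxidant response element core was found in either. Reads of such copies can be split or misplaced by mapping, and this was not tested.

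The other genes of the retinal group had no peak within 1 kb of a listed start. Aldh1a2 held peaks of 19.6 and 30.4, the latter (23.3 to 39) at chr9:71280570-71280770, 64881 bp downstream of its start. Aldh8a1 had 4 peaks between 6.37 and 18.1, the highest of them inside Hbs1l. Aldh1a3 had none. Aldh2, the mitochondrial enzyme that clears acetaldehyde, had 3 peaks of similar height, 16.2, 13.2 and 19.6, whose intervals overlapped. The highest (14 to 26.7) lay inside the gene at chr5:121584113-121584313, and its ratio over a single control tag was 33.7 (5.72 to 1366). Aldh1b1, its mitochondrial relative, had 1 peak of 6.37, which lay inside Igfbpl1.

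The folate enzymes had 6 and 2 peaks. Aldh1l1, the cytosolic formyltetrahydrofolate dehydrogenase, had 6 peaks along its 48404 bp, of 15.7, 19.6, 26, 25.5, 26 and 10.8 in order of position. Of these, 4 lay between 19.6 and 26 with overlapping intervals, so no single peak stood out. The 2 at 26 (19.5 to 34), at chr6:90578277-90578477 and chr6:90597721-90597921, each had a single control tag, for a ratio of 44.7 (7.68 to 1799). Aldh1l2, the mitochondrial form, held 2 peaks of 16.7 and 7.84. Aldh16a1, whose role is not settled, had 4 peaks of 6.86 to 23.5, and the 2 inside it also lay inside the overlapping gene Pih1d1.

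The carboxylesterases sit in 2 clusters on chromosome 8, with Ces5a apart. The Ces1 cluster, Ces1a to Ces1h, spans 359.6 kb from 93020214 to 93379777. With 10 kb on either side it held 23 peaks, of 4.9 to 55.9 with a median of 12.3, and 20 of them lay inside or within 10 kb of a member. Of its 8 genes 7 had a peak inside, where 52.2% of all genes did. The tallest, of 55.9 (46.1 to 67.1) at chr8:93017463-93017663, lay 2651 bp beyond the far end of Ces1a, with a ratio of 32.05 (10.7 to 158). In the authors' deposited table it stood 99.8-fold over the surrounding 10 kb, against a median of 11.6 over the carboxylesterase peaks. A peak of nearly the same height, 54.4 (44.75 to 65.5), lay inside Ces1f at chr8:93273550-93273750. With 0 control tags there, it was 31.2-fold over the floor (exact lower limit 25).

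Lower peaks lay along the other Ces1 genes. Ces1d, which encodes a triacylglycerol hydrolase of liver, had peaks of 6.37, 24, 30.4 and 12.3. The highest (23.3 to 39) lay inside it at chr8:93192123-93192323, with a ratio of 26.15 (6.94 to 221), and the last lay 176 bp outside its end. Ces1e, the egasyn that holds beta-glucuronidase in the endoplasmic reticulum, shares the peaks of 30.4 and 12.3 with Ces1d. Its own highest, of 27.4 (20.7 to 35.6), lay 452 bp downstream of its start. With 0 control tags, that peak was 15.75-fold over the floor (exact lower limit 12.4). Ces1g, an esterase of hepatic lipid and lipoprotein metabolism, had peaks of 6.86, 29.4 and 13.2. The highest (22.4 to 37.9) lay 4352 bp downstream of the start at chr8:93332757-93332957, with a ratio of 12.65 (4.69 to 47.9), and that of 13.2 was centred 36 bp upstream of the start. Ces1b and Ces1h had peaks of at most 19.1 and 11.3, and Ces1c, the plasma esterase gene, had none. Aligned end to end, the Ces1c start window was 78% identical to the Ces1b window at chr8:93079891-93080190, over 327 aligned columns. It was 49.9% identical to the Ces1b window at chr8:93079968-93080267, over 391 columns. These Ces1b windows overlap and are shifted against each other, and columns with an unpaired base count as not identical. The lower value therefore does not show a less similar copy. Whether mapping lost reads at such copies was not tested.

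The Ces1g start window is shown as the contrast to the windows above, a start under a peak without these letters. It lies on the minus strand at chr8:93337160-93337459, and no capitals appear because neither TGCTGA, TGACNNNGC nor TGANTCA occurs in it on either strand.
Ces1g: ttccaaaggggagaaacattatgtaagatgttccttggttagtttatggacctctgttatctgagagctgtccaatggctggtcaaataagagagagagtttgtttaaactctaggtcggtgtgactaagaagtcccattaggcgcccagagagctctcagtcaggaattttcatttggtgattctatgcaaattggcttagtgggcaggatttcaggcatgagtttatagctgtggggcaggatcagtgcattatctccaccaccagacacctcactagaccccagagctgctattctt

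The second cluster, Ces2a to Ces4a, spans 416.1 kb from 104734003 to 105150109 and holds the Ces2, Ces3 and Ces4 genes. It had 25 peaks, of 5.39 to 58.8 with a median of 10.8, of which 17 lay inside or within 10 kb of a member. Of its 10 genes 8 had a peak, near the 76.5% of all genes. Inside members lay 4 peaks of the cluster, 1 each in Ces2c, Ces2e, Ces2h and Ces3a, where 52.2% of all genes had a peak inside. The share of the span that lies between the genes was not corrected for. The 3 tallest peaks of this cluster belonged to Ces2h, which had 5, of 38.2, 10.8, 7.35, 58.8 and 32.8 in order of position. The tallest, of 58.8 (48.8 to 70.3) at chr8:105006936-105007136, lay inside Ces2h with 4 control tags and a ratio of 25.3 (9.63 to 94.4). Its clonal fold, the authors' measure of tags piled on the same positions, was 1.1, the highest of the member peaks, whose median was 0.885.

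Elsewhere in this cluster peaks reached at most 20.6, below the tallest at Ces2h, beside a median of 12.3 over all peaks on chromosomes 1 to 19. Ces2a, a liver and gut esterase that acts on drugs and glycerolipids, had peaks of 7.35 and 11.3. The higher (7.145 to 16.91), at chr8:104731531-104731731, lay 2372 bp upstream with 0 control tags, 6.47-fold over the floor (exact lower limit 4.85). Ces2b and Ces2c shared a peak of 19.1 (13.6 to 26.1) inside Ces2c, and Ces2e held one of 20.6 (14.8 to 27.8) centred 160 bp downstream of its start. Ces3a, a lipid hydrolase gene of liver, had peaks of 6.86, 15.2 and 5.39. The highest (10.3 to 21.6), at chr8:105068028-105068228, lay 6200 bp outside it with a ratio of 13.1 (3.33 to 113). Ces3b and Ces4a had peaks of at most 8.82 and 7.35. The Ces1 genes had a median highest count of 29.9, the Ces2 genes of 19.1 and the Ces3 to Ces5 genes of 8.085.

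**Figure D2:**
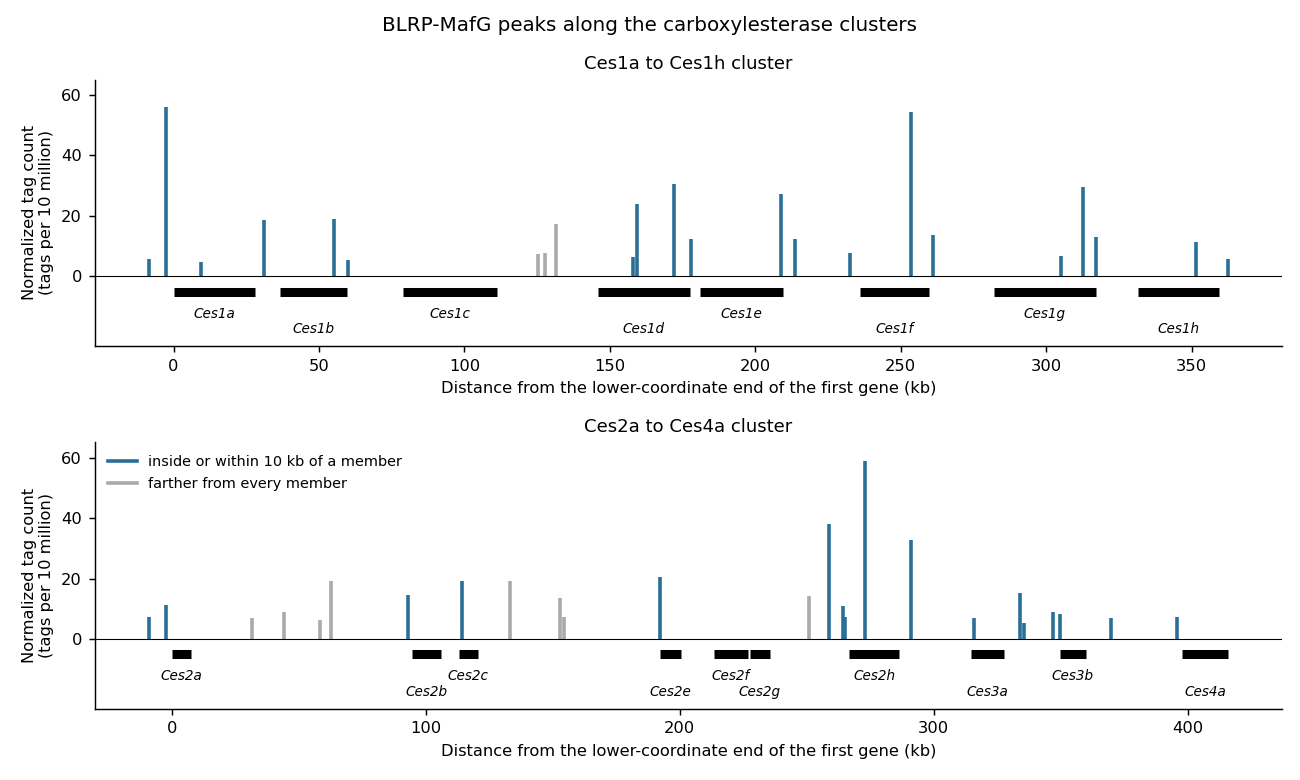
BLRP-MafG peaks (vertical lines, height in normalized tags per 10000000) along the Ces1 (top) and Ces2 to Ces4 clusters (bottom), against the distance in kb from the lower-coordinate end of the first gene; black bars are genes and grey lines are peaks over 10 kb from every member. Tall peaks stand beside Ces1a (55.9), in Ces1f (54.4) and around Ces2h (58.8), and Ces1c, Ces2f and Ces2g have none within 10 kb.

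Of the 6 members without a peak, all but Ces5a had one within 20935 bp. The nearest peak lay 14314 bp from Ces1c, with a count of 7.35. It lay 15352 bp from Aldh3b2, with 8.33, and 15609 bp from Ces2g, with 14.2. It lay 19641 bp from Aldh1a3, with 6.37, and 20935 bp from Ces2f, with 20.6. Ces5a, known from kidney and epididymis, was the most remote, at 45340 bp from a peak of 6.86. At the 10 kb limit itself the tall Aldh3b1 peak fell just inside. The 5 member peaks nearest to it from inside, at 9063 to 9913 bp, had counts of 6.86 to 100.9. The 5 nearest from beyond, at 10267 to 10889 bp, had counts of 5.39 to 22.5.

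Over all members there were 98 distinct peaks, of which 4 were shared by 2 neighbouring members and 50 lay inside a member. Their density was 0.54 per 10 kb of gene and flanking window, against 0.341 over all genes. For 14 of the 98 another gene was nearer, and all 14 belonged to aldehyde dehydrogenases. No other protein-coding gene lies in the span of the 2 carboxylesterase clusters. The nearest gene was a member for 84 of the 98. In other families it was of the family for 52 of 60 Ugt and Sult peaks, 120 of 126 P450 peaks and 41 of 46 glutathione S-transferase peaks. The median height was 16.7 (quartiles 7.84 and 31.4) in the 61 aldehyde dehydrogenase peaks and 12.3 (quartiles 7.35 and 20.6) in the 37 carboxylesterase peaks, against 12.3 (quartiles 7.84 and 24) in all 66904 peaks on chromosomes 1 to 19. The control held 0 tags in 33 of the 98 (33.7%), beside 43.9% of all peaks on these chromosomes, and at most 6 in any. Over their surroundings of 10 kb, member peaks had a median fold of 10.9 and all peaks of 15.8 in the authors' deposited table. The exact lower limit of the ratio to control exceeded 10 at 12 of the 98. The same share over all peaks was not computed, so this count has no background beside it.

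**Figure D3:**
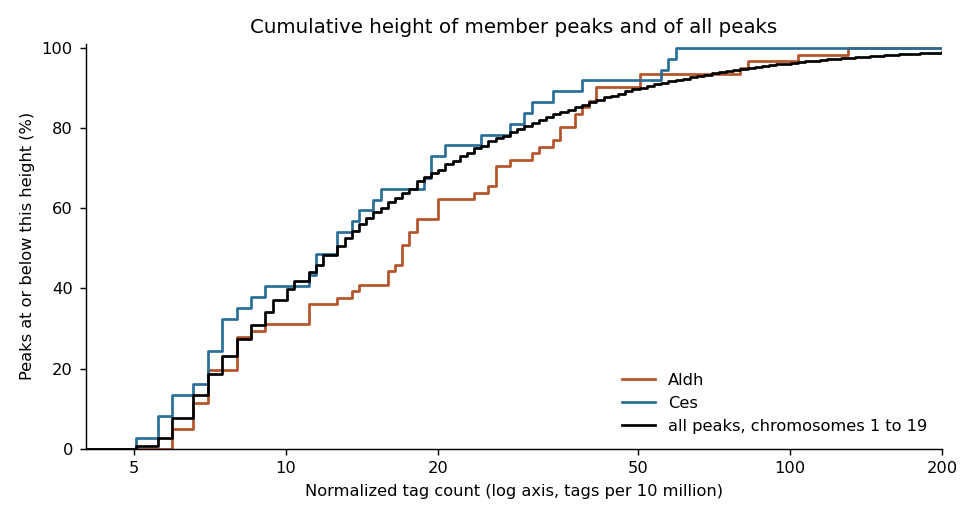
Cumulative share of peaks (percent) at or below a given normalized tag count (tags per 10000000, log axis) for the 61 aldehyde dehydrogenase peaks, the 37 carboxylesterase peaks and all 66904 peaks of chromosomes 1 to 19. The carboxylesterase curve ends at 58.8 and shares its median of 12.3 with all peaks, while the aldehyde dehydrogenase curve has its median at 16.7 and ends at 129.9.

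Start sites are listed for 30 of the 40 members. Among the 81 pairs of such a gene and a peak, 11 were centred within 1 kb of a listed start, 21 farther upstream and 49 farther downstream. The counting window holds 10 kb upstream of a gene, but the gene and 10 kb more downstream. These counts were not corrected for that room, and the same placement over all genes was not counted. Of the 30 genes 7 had a peak that overlapped a 300-base promoter window, against 13.3% of genes with a window. These were Aldh9a1, Aldh1a1, Aldh1a7, Aldh6a1, Ces1b, Ces1g and Ces3b, and the counts at their windows ran from 5.39 at Ces1b to 80.9 at Aldh9a1. The other peaks of at least 50 at these genes lay 6206 bp or more downstream of a listed start.

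**Figure D4:**
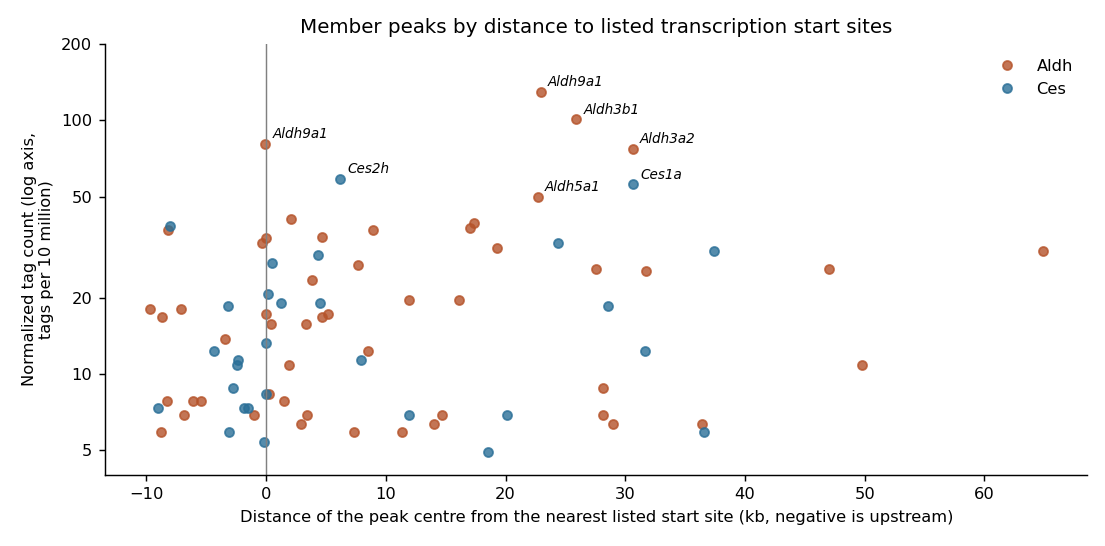
Normalized tag count (tags per 10000000, log axis) of each member peak against the distance of its centre from the nearest listed start site (kb, negative is upstream), for the 30 genes with one. Of the peaks at or above 50, which are named, that of Aldh9a1 at 80.9 sits at a start. The rest lie downstream, where the counting window is wider.

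Known MAF and AP-1 letter patterns were searched in the promoter windows on both strands. TGCTGA occurred in 7 of 33 member windows (21.2%), against 17.9% of all 20085, and in 3 of the 8 under a peak, those of Aldh9a1, Aldh1a1 and Aldh1a7. TGACNNNGC occurred in 2 (6.06%), those of Aldh9a1 and Aldh1a2, against 13.1%. The AP-1 like TGANTCA occurred in 1 (3.03%), the upstream start of Aldh1a1, against 7.06%. TGCTGA and its reverse complement facing each other 1 base apart, a full MAF element, occurred in 0 of all windows. The first 2 patterns can overlap by 3 bases, as they do at Aldh9a1. In all 2359 windows under a peak, the first 3 occurred in 22.3%, 18.4% and 6.1%. A match is a run of letters and not a shown binding site.

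Of 43 other genes of aldehyde, retinoid and ester metabolism, 40 (93%) had a peak, against the same 76.5%, with a median highest count of 18.6. The tallest peaks belonged to reductases of aldehydes. Akr1b8, an aldose reductase-like gene, had its highest, 249.9 (229 to 273), at a distance of 5574 bp at chr6:34373935-34374135, with a ratio of 143 (48.8 to 698). Akr7a5, an aflatoxin aldehyde reductase gene, reached 143.1 (127 to 160.5) at chr4:139325060-139325260, a distance of 6374 bp, and its ratio was 82.1 (27.8 to 400). Both counts exceeded those of all member peaks, though the interval of Akr7a5 overlapped that of the 129.9 peak near Aldh9a1. Cel and Ache, which encode bile salt-dependent lipase and acetylcholinesterase, reached 71.5 (60.4 to 84.1) and 60.3 (50.1 to 71.9). The Cel peak, at chr2:28548719-28548919, lay 7000 bp outside it and nearer to Ralgds, with 3 control tags and a ratio of 41.05 (13.8 to 201). The Ache peak, at chr5:137281331-137281531, lay 6816 bp outside it, with 4 control tags and a ratio of 25.9 (9.88 to 96.7). Adh4, an alcohol dehydrogenase gene, held one of 59.8 (49.65 to 71.4) at chr3:138423871-138424071, with 10 control tags and a ratio of 10.3 (5.41 to 22). Nceh1, a cholesteryl ester hydrolase gene, held one of 54.4 (44.75 to 65.5) at chr3:27212513-27212713, with 3 control tags and a ratio of 31.2 (10.4 to 154). At Adh7, another alcohol dehydrogenase gene, the highest was 53.4 (43.9 to 64.4) at chr3:138192373-138192573, 5591 bp away and nearer to 4930579F01Rik. Its single control tag gave a ratio of 91.95 (16.2 to 3665). At the paraoxonase gene Pon3 it was 47 (38.1 to 57.45) at chr6:5207980-5208180, 8176 bp away, and the ratio over a single control tag was 80.98 (14.2 to 3231). Rdh12, Akr1b10 and Aadac had none within 10 kb. The Akr1b8 peak of 249.9 lay between Akr1b8 and Akr1b10, just beyond this limit from Akr1b10.

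By group, all 8 genes taken as alcohol dehydrogenases and aldehyde oxidases had a peak. This group also holds Xdh and the P450 gene Cyp2e1, which is counted again with its family below. A peak was listed for 7 of 8 carbonyl reductases and 11 of 12 Rdh and Dhrs genes of retinol and retinal metabolism. Among other esterases and lipases it was 14 of 15. The median highest counts of these groups were 24.75, 22.3, 14.95 and 17.2 in that order, beside 14.7 over all genes. In other detoxification families, the share of genes with a peak was 34 of 43 in Ugt and Sult, 64 of 79 in cytochrome P450 families 1 to 4 and 22 of 22 in glutathione S-transferases, or 79.1%, 81% and 100%, beside 76.5% of all genes. The median highest counts were 17.2, 12.3 and 20.1 in that order, beside 14.7 over all genes. These differences were not tested.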

How the data were processed

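ChIP-seq of tagged MafG and control livers was used as 1 deposited peak list. Reads were processed with Bowtie2 and HOMER on mm10 per the submitters' processing notes, which name no version. HOMER findPeaks, per the file headers, called 68763 peaks of 200 bp on 1 BLRP-MafG tag collection over 1 control collection, requiring a 10-fold excess at a Poisson p-value of 1e-06, a 4-fold excess over the surrounding 10 kb and a false discovery rate of 0.001, with at most 1 tag per bp. A gene without a listed peak can therefore hold weaker signal. It is not known whether a collection joined both libraries of its group.

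The deposited signal columns are the normalized tag count, BLRP-MafG tags scaled by the authors to 10000000, the same tags scaled to the control total, and control tags, with 0.5 standing for 0. The deposited fold values are linear ratios over control, surroundings and unique positions. The deposited score was not used, and the deposited p-values over control served only as a stricter threshold. Multiplied back, all normalized tag counts came within 0.102 of whole tags, and intervals were computed from these with SciPy 1.17.1 (Poisson for counts, conditional binomial for ratios). They cover counting error only. The control total was taken from the deposited scaling.

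Genes came from RefSeq on GRCm38.p6, whose table gives ends but not strand; start sites and strand came from RefSeq promoter windows, found by gene ID for 30 of 40 members (Aldh2, Aldh1a3, Aldh1l2, Aldh3a1, Aldh3b2, Aldh7a1, Ces1d, Ces1f, Ces2b and Ces3a have none listed). Windows were aligned with Biopython 1.88. Members within 100 kb of each other formed a cluster. Full values were given for the 12 members with the highest peak, the highest peak of each cluster and 8 genes picked for their role (Aldh1a1, Aldh2, Aldh3a2, Aldh1l1, Ces1d, Ces1g, Ces2a, Ces3a), and for the 8 highest pathway genes; other genes named for a peak at their start were chosen after their values were seen. Members, lists and tests were chosen with earlier results of these data known. Interval and window code was tested on simulated data.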

Additional observations from a re-analysis of the deposited data

How the results depend on the processing

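Counts of genes with a peak kept within 1.5 times of the reported ones under all 9 alternatives for aldehyde dehydrogenases (14 to 21 of 21 genes) and, but for the height limit, for carboxylesterases. With a normalized tag count of at least 20, 7 carboxylesterases had a peak, 21 pathway genes, and 23 aldehyde dehydrogenase and 10 carboxylesterase peaks were counted. Inside the gene only, the counts were 26 pathway genes, 36 aldehyde dehydrogenase peaks and 14 carboxylesterase peaks. Within 1 kb there were 39 and 18 peaks of the families in that order, and with a deposited fold over control of at least 20 there were 37 and 21. Within 50 kb there were 134 aldehyde dehydrogenase peaks, and all 40 members had a peak, as did 95% of all genes. Clusters, single genes included, numbered 20, or 22 and 19 when chained within 50 and 500 kb. When a peak counted only for the nearest gene, the highest count left its interval for 5 of 34 members: Aldh9a1 (80.9), Aldh3b1 (34.8), and Aldh3b3, Aldh6a1 and Aldh1b1 (0, no peak). It left it for 0 of 34 when depth-scaled control tags were subtracted, for 11 within 1 kb and for 16 within 50 kb. Ratios against 0 control tags were 6 times higher with 0.5 tags in place of 3. No paired analysis was possible because the list holds no value per library, and no library could be left out for the same reason. Depth limits single peaks: the median listed peak held 25 BLRP-MafG tags.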

Other observations

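The pseudogene Ces2d-ps, which is no protein-coding member, lies inside the second carboxylesterase cluster at chr8:104867424-104874083. It had 1 peak within 10 kb, of 19.1 (13.6 to 26.1) at chr8:104867283-104867483, centred 41 bp outside one end. The control held 1 tag and the ratio was 32.9 (5.57 to 1332). The peak inside Ces2c, its neighbour, had the same count of 19.1, with 0 control tags. Of the 8 peaks of the cluster over 10 kb from every member, this is one.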
